A study of Macaca mulatta with 6 samples.

Results

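LIPA, NPC1, NPC2 and DNASE2 encode 4 proteins of the lysosome, 3 of them in the release of cholesterol and the fourth in the digestion of DNA. They were examined in luteal cells of the rhesus macaque treated with an agonist of the liver X receptors (LXRs), nuclear receptors that sense oxidised cholesterol. The genes were picked by name, and every probe set annotated to one of them was used: 1 each for LIPA, NPC1 and NPC2 and 2 for DNASE2, or 5 of 52766 probe sets. The choice was made with the treatment differences of these arrays known, DNASE2 being among the genes that rose. The difference between treated and vehicle arrays is therefore given below as a description with no test for these 4 genes. The level between replicates, which the choice did not use, was tested.

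The lysosome is the acidic compartment in which cells break down lipoproteins and other material they take up. LIPA, lysosomal acid lipase, splits the cholesteryl esters and triglycerides of lipoproteins. NPC2, a small soluble sterol carrier, takes up the freed cholesterol and hands it to NPC1, a membrane protein that passes it out of the lysosome. Luteal cells take up lipoproteins as a source of cholesterol for progesterone, so that this route stands upstream of steroid synthesis. DNASE2 is an acid endonuclease that degrades DNA delivered to the lysosome, and macrophages, which engulf dead cells, are known for high levels of it.

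The study measured 6 arrays, 3 from cultures in 0.1% dimethyl sulfoxide (DMSO, the vehicle) and 3 from cultures in 1 µM T0901317, a synthetic LXR agonist. All cells were dispersed from corpora lutea 12 days after the surge of luteinizing hormone, plated on fibronectin in serum-free medium with insulin and transferrin, and treated for 24 h from plating. The design text calls the 3 replicates paired, and arrays with the same replicate number were treated as pairs. The sources used here give no strain or age, nor whether 1 animal supplied a pair of cultures, so p-values measure the spread between these arrays.

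Values are RMA levels on a log2 scale, so that a difference of 1 is 2-fold. Column medians ran from 5.54 to 5.71, and 68.8% to 74.1% of probe sets lay above a reference for dim signal of 4.63, the 95th percentile of the Bacillus control probe sets. The luteal marker STAR, which carries cholesterol into mitochondria, lay between 10.54 and 11.48 on the 6 arrays, and all 8 measured luteal markers were above the reference on each. CYP11A1 and LHCGR were not analysed here. All 14 measured macrophage markers and 9 of 11 endothelial markers also lay above it on every array. Most probe sets pass this reference, so the cell types present are not read from these counts. RNA quality set replicate 3 apart. The difference between 3' and 5' control probe sets, averaged over actin, GAPDH and EF1a, was 1.89 in its vehicle array and 1.30 in its treated array, against 0.69 to 1.00 on the other 4 arrays.

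LIPA was lower with T0901317 in each pair. The vehicle arrays of replicates 1, 2 and 3 had levels of 10.53, 11.25 and 11.66, and the treated arrays 10.14, 11.11 and 11.50. Replicate 1 was the lowest in both groups, and the groups overlapped. The pair differences were -0.38, -0.14 and -0.17, with a mean of -0.23 ± 0.07 (limma's SE, n = 3 pairs), or 0.85-fold. The vehicle arrays of LIPA had an SD of 0.57, and the pair differences an SD of 0.13. Without replicate 1 the difference was -0.15. Among the 14132 named genes, 3.02% had a lower difference than LIPA.

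The sterol carriers moved less. NPC2 had 11.54, 12.55 and 12.24 in the vehicle arrays and 11.42, 12.46 and 12.18 in the treated arrays. Each treated array lay slightly below its partner, with differences of -0.125, -0.085 and -0.058, and the mean difference was -0.09 ± 0.06 (n = 3 pairs). The pairs of NPC2 were close to each other, with an SD of 0.034, while the vehicle arrays had an SD of 0.52. NPC1 had 9.79, 10.57 and 10.14 with DMSO and 9.67, 10.54 and 10.44 with T0901317. Its pairs disagreed in sign, at -0.11, -0.02 and 0.29, and averaged 0.05 ± 0.09. The positive mean came from replicate 3, without which the difference of NPC1 was -0.07.

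DNASE2 was higher with T0901317 in each pair and on both of its probe sets. On the brighter one, MmugDNA.15865.1.S1_at, the vehicle arrays had levels of 7.70, 9.68 and 8.15 and the treated arrays 8.41, 10.76 and 9.70. The pair differences were 0.71, 1.08 and 1.55, with a mean of 1.11 ± 0.13 (limma's SE, n = 3 pairs), or 2.16-fold. On the dimmer one, MmugDNA.17812.1.S1_at, the vehicle arrays had 7.56, 9.25 and 7.64 and the treated arrays 7.94, 10.19 and 8.95. There the pair differences were 0.39, 0.94 and 1.31, with a mean of 0.88 ± 0.14, or 1.84-fold. On both probe sets pair 1 had the smallest and pair 3 the largest difference. The vehicle array of replicate 2 exceeded the treated array of replicate 1, so the groups overlapped although every pair moved one way. The SD over the vehicle arrays was 1.04 on the brighter probe set and 0.96 on the dimmer, close to the size of the treatment difference.

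**Figure D1:**
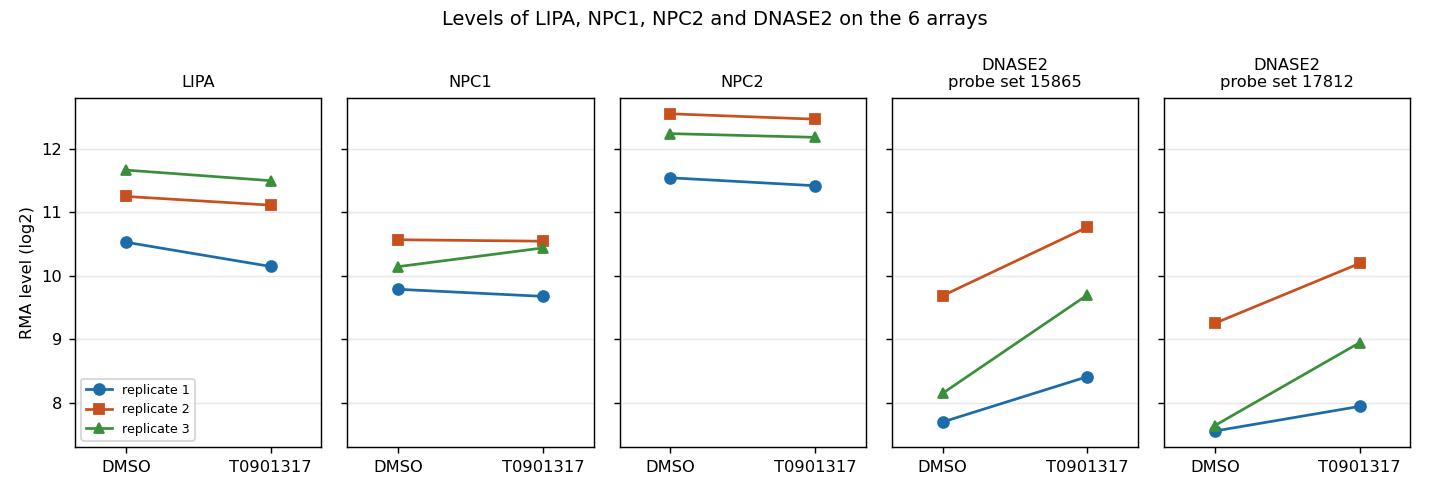
RMA levels on a log2 scale (vertical axis) of the 5 probe sets in DMSO and T0901317 arrays (horizontal axis), with lines joining the arrays of a replicate. The lines of DNASE2 slope upward in all 3 replicates, those of LIPA and NPC2 slope slightly downward, and replicate 1 is the lowest line in every panel.

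By the rule that an adjusted p over all probe sets is under 0.05, 1 of the 5 probe sets was called, the brighter one of DNASE2, beside 0.0853% of all probe sets. That call was lost without the replicate block and without a variance trend, whereas the dimmer probe set was called as well with median centring, with an RNA quality covariate and without replicate 1 or 3. Since this contrast chose the genes, nothing is read from these calls, their share or their changes between settings. None of the 4 genes had groups that did not overlap, beside 1.90% of named genes. LIPA, NPC2 and DNASE2 had the same sign in 3 of 3 pairs, beside 25.2% of named genes. The difference of DNASE2 was the ninth highest of all named genes, with 99.9% below it, while the values of NPC1 and NPC2 lay among those of most genes (5th to 95th percentile -0.19 to 0.18).

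**Figure D2:**
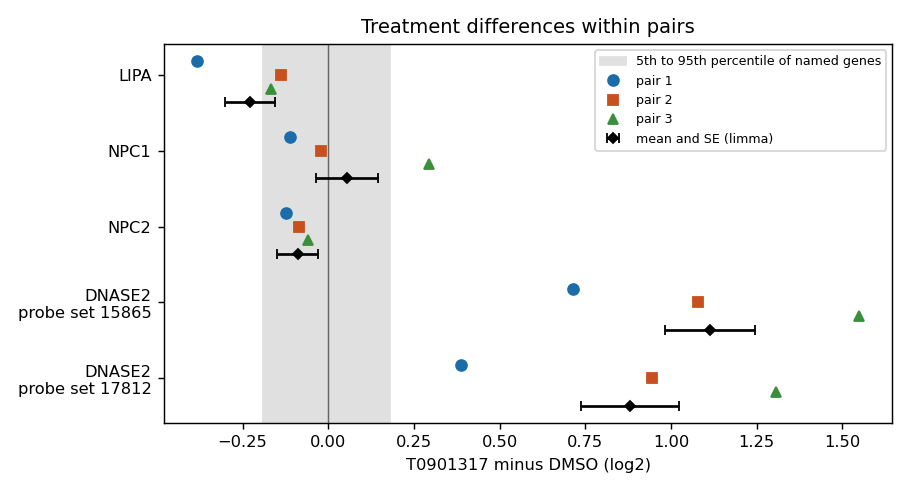
T0901317 minus DMSO on a log2 scale (horizontal axis) for each pair and probe set (vertical axis), with the mean and its SE from limma in black and the 5th to 95th percentile of named genes in grey. All 6 pair values of DNASE2, from 0.39 to 1.55, lie to the right of the grey band, and those of NPC1 lie on both sides of 0.

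Markers of macrophages, cells rich in lysosomes, had a median treatment difference near 0. The mean level of the 14 markers was 7.13, 8.05 and 8.07 in the vehicle arrays and 7.11, 8.002 and 8.14 in the treated arrays. Of these markers 0 rose, 0 fell and 14 did not pass over all probe sets, beside 0.177% of named genes called, and 2 had an unadjusted p under 0.05, both lower. Their median difference was -0.0027, beside -0.02 for all named genes. TYROBP, a signalling adaptor of myeloid cells, had -0.29 ± 0.08 and CSF1R, the receptor of a macrophage growth factor, -0.25 ± 0.11 (limma adjusted p = 0.66 and 1.00). Endothelial markers had a median difference of 0.21, with 9 of 11 above 0 and none past the threshold. CDH5, a junction protein, had 0.39 ± 0.10 and the adhesion molecule PECAM1 0.23 ± 0.11 (limma adjusted p = 0.68 and 1.00). Luteal markers had a median of -0.11 over 8 genes and none passed. INHA, a hormone subunit, had -0.21 ± 0.10, the transcription factor NR5A1 -0.22 ± 0.14 and STAR -0.09 ± 0.08. The part of these markers in the differences of the 4 genes was not tested. In RNA from whole cultures, more cells of a type and more RNA per cell cannot be told apart.

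From vehicle to treated array the 3' to 5' control difference went from 0.83 to 1.00 in pair 1, from 0.76 to 0.69 in pair 2 and from 1.89 to 1.30 in pair 3. It rose in the pair with the smallest difference of DNASE2 and fell most in the pair with the largest. Its part in the differences of DNASE2 was not tested. With the control difference as a covariate DNASE2 had differences of 0.93 and 0.69 on the brighter and dimmer probe sets, and without replicate 3 of 0.90 and 0.67.

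No gene of the lysosomal lists passed in the treatment contrast. The 9 lists of lysosomal, DNase and DNA sensing genes hold none of the 4 genes and had 102 measured genes, of which 0 rose, 0 fell and 102 did not pass in limma's fit. At an unadjusted p under 0.05 there were 8, 1 higher and 7 lower. Their median difference was -0.04, with 35 above 0 and 67 below, beside a median of -0.02 and 41.4% above 0 for all named genes. By the probe set of highest mean, the highest value in these lists was 0.25 ± 0.14, of NAAA, an acid amidase. DNASE2 had 1.11, but it was picked with this contrast known, so its place above the lists is not a result. The other probe set of NAAA had 0.09, and other probe sets of list genes reached 0.33, in ARSB.

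Lipid hydrolases and their activators, the enzymes closest to LIPA, had a median of -0.0088 over 11 genes, with 5 above 0 and 6 below. CTSA, which protects 2 other lysosomal enzymes, had 0.15 ± 0.07 and GALC, which splits galactosylceramide, -0.12 ± 0.07 (limma adjusted p = 1.00 for both). The other probe sets of GALC ran from -0.15 to 0.12. Proteins around the sterol exit had a median of -0.07, with 7 of 8 below 0. TMEM97, a membrane protein that binds NPC1, had -0.24 ± 0.08 with its other 2 probe sets at -0.31 and -0.17, and LAMP2, a coat protein of the lysosomal membrane, -0.13 ± 0.09. Neither passed (limma adjusted p = 1.00 for both).

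Nucleases and related genes of the lysosome, the nearest in role to DNASE2, had a median of -0.02 over 7 genes. RNASE6, a ribonuclease of myeloid cells, had -0.32 ± 0.12 and PLD4, an exonuclease for single-stranded nucleic acids, -0.21 ± 0.13. The other probe set of RNASE6 had -0.13 and those of PLD4 -0.06 and 0.03. The second DNase II gene, DNASE2B, was not analysed here. Among 6 other DNases the values ran from -0.23 to 0.18, with TREX2, an exonuclease, at the lower end and DNASE1L2, a relative of DNase I, at the upper. DNASE1L2 had -0.03 without replicate 3. None of these genes passed (limma adjusted p = 1.00 for the 4 named).

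DNA sensing genes, which respond to DNA that escapes digestion, had a median of -0.14, with 9 of 11 below 0. IFNB1, the interferon that DNA sensors induce, had a difference of -0.64 ± 0.18 at a low level. Its vehicle arrays had 5.65, 4.31 and 5.71 and its treated arrays 4.63, 4.28 and 4.85. Both arrays of replicate 2 and the treated array of replicate 1 lay below the reference for dim signal, and the difference in pair 2 was -0.03. IFNB1 did not pass (limma adjusted p = 0.87) but passed without replicate 2 (-0.94; adjusted p = 0.029), a value that still rests in part on the dim treated array of replicate 1. TBK1, a kinase of this pathway, had -0.22 ± 0.09 (adjusted p = 1.00).

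The remaining lysosomal lists stayed near 0 in their medians. Proteases and cystatins had -0.03 over 15 genes, with CTSL, a cysteine protease, at 0.13 ± 0.05 and CTSD, an aspartic protease, at -0.19 ± 0.08. Glycosidases and sulfatases had -0.01 over 14 genes, with HYAL1 at -0.29 ± 0.14 and GNPTAB, which makes the sorting tag of lysosomal enzymes, at 0.25 ± 0.13. Membrane and acidification genes had -0.02 over 17 genes, with OSTM1 at 0.12 ± 0.10 and the proton pump subunit ATP6V1D at -0.11 ± 0.11. Regulators and sorting receptors had -0.07 over 13 genes. TFEC, a relative of the lysosomal regulator TFEB, had -0.34 ± 0.10 and IGF2R, a sorting receptor, -0.12 ± 0.08. Other probe sets of these genes differed, with CTSD at -0.0085, HYAL1 at 0.016, IGF2R at 0.054 and TFEC at -0.24 and 0.15. None of these genes passed in limma (lowest adjusted p = 0.997, for TFEC).

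**Figure D3:**
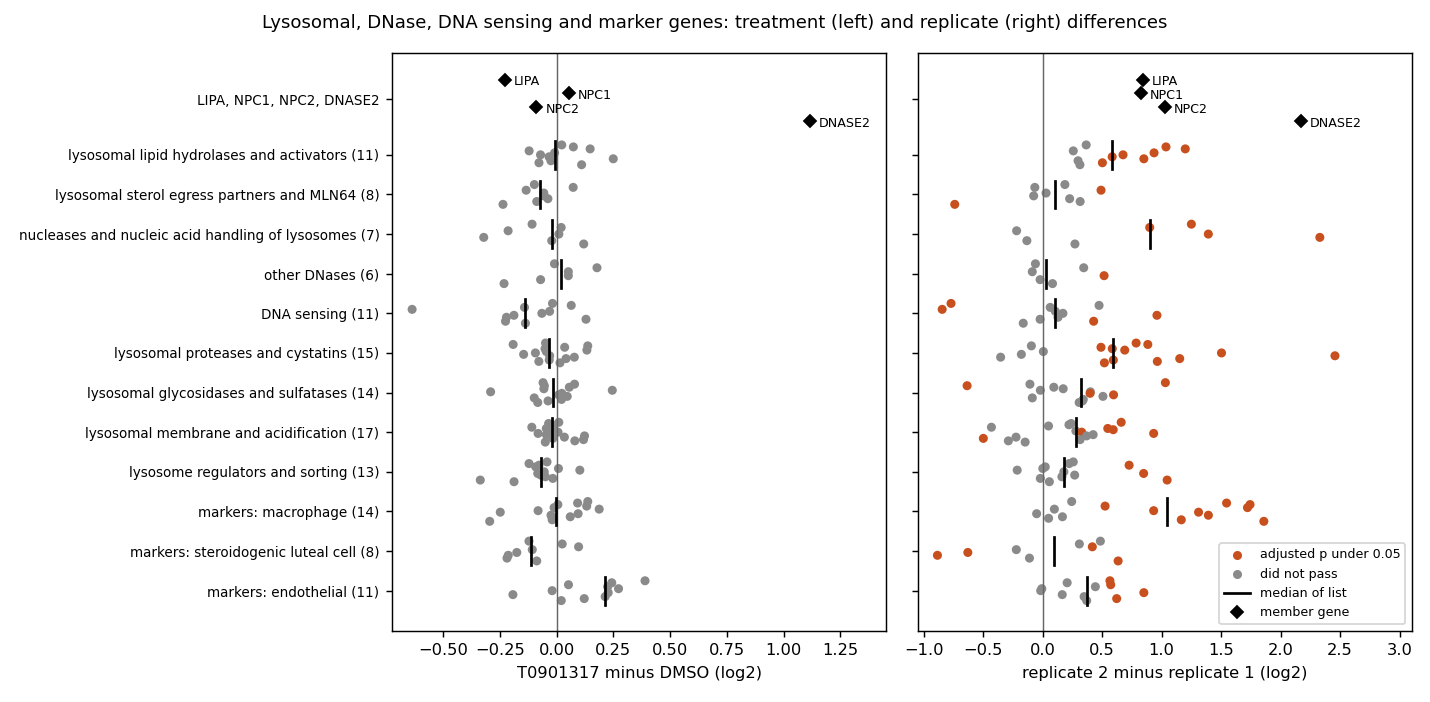
Log2 differences of member genes (diamonds) and of the measured genes of each list (points, number in brackets on the vertical axis): T0901317 minus DMSO on the left and replicate 2 minus replicate 1 on the right. Black bars are list medians and orange marks an adjusted p under 0.05. On the left DNASE2, picked with this contrast known, lies at 1.11 and no list gene is orange. On the right the 4 members lie between 0.82 and 2.17.

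All 4 genes differed between replicates by more than arrays of a pair differed after treatment was taken into account. In a moderated F test over the replicate numbers, with treatment in the model, limma gave adjusted p-values of 4.4e-06 for LIPA, 3.9e-04 for NPC1, 3.3e-06 for NPC2, and 5.6e-06 and 1.7e-05 for the brighter and dimmer probe sets of DNASE2. Thus 5 of 5 probe sets were called, beside 40.2% of all probe sets, or 4 of 4 genes beside 46.2% of named genes. The call of NPC1 was lost without replicate 1 (adjusted p = 0.071).

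Replicate 1 was the lowest for each gene. For LIPA, NPC1 and NPC2 both arrays of replicate 1 lay below the other 4 arrays, which held for 11.2% of named genes. For both probe sets of DNASE2 the treated array of replicate 1 exceeded the vehicle array of replicate 3. The comparison of replicate 2 with replicate 1 leaves out the arrays of replicate 3. Its arrays had 3' to 5' control differences of 0.69 to 1.00, with both ends of this range in the treated arrays. There NPC1 was higher in replicate 2 by 0.82 ± 0.11 and LIPA by 0.84 ± 0.09 (limma adjusted p = 4.9e-04 and 9.5e-05). NPC2 was higher by 1.03 ± 0.07 (adjusted p = 3.8e-06). DNASE2 differed most, by 2.17 ± 0.16 on the brighter and 1.97 ± 0.18 on the dimmer probe set (adjusted p = 6.0e-06 and 2.2e-05). All 5 probe sets passed, beside 15.9% of named genes in that comparison. For DNASE2 these values exceed its treatment difference of 1.11 ± 0.13, a comparison that was not tested. With the 3' to 5' difference as a covariate, replicate 2 was higher by 0.80 for LIPA, 0.72 for NPC1 and 1.01 for NPC2. DNASE2 then had 1.96 and 1.76 on the brighter and dimmer probe sets.

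Replicate 3 was above replicate 1 for each gene, with an RNA quality that also differed. LIPA was higher by 1.24 ± 0.09 and NPC2 by 0.73 ± 0.07 (limma adjusted p = 3.1e-06 and 2.7e-05). NPC1 was higher by 0.56 ± 0.11, and DNASE2 by 0.87 ± 0.16 and 0.54 ± 0.18 (adjusted p = 0.0030, 0.0020 and 0.035). All 5 passed, beside 37.0% of named genes. The dimmer probe set of DNASE2 no longer passed with median centring (0.41; adjusted p = 0.11) or without a variance trend (adjusted p = 0.068). With the 3' to 5' difference as a covariate NPC1 was higher by 0.93 and DNASE2 by 1.60 and 1.32.

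Replicates 3 and 2 ordered the genes differently. LIPA was higher in replicate 3, by 0.40 ± 0.09, while NPC2 was lower, at -0.30 ± 0.07 (limma adjusted p = 0.0056 and 0.0079). DNASE2 was lower in replicate 3, with differences of -1.30 ± 0.16 and -1.43 ± 0.18 (adjusted p = 1.1e-04 and 1.0e-04). NPC1 had -0.26 ± 0.11 and did not pass (adjusted p = 0.078), so that replicates 2 and 3 were not separated for it, although it passed with median centring (-0.40; adjusted p = 0.023). Thus 3 of 4 genes were called, beside 40.3% of named genes. With the 3' to 5' difference as a covariate none of these calls held. LIPA had 0.60 ± 0.18 (limma adjusted p = 0.051) and NPC2 -0.23 ± 0.15 (0.49). DNASE2 had -0.36 ± 0.21 and -0.44 ± 0.24 (0.41 and 0.36), and NPC1 turned to 0.22 ± 0.19 (0.61). These SEs were larger than in the main fit, and LIPA lost its call although its difference grew. The covariate was highest in replicate 3, so its part and that of the replicate cannot be well told apart. NPC2 also lost its call with cyclic loess (-0.15; adjusted p = 0.099) and without a variance trend (adjusted p = 0.093), and LIPA with median centring (0.26; adjusted p = 0.082).

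**Figure D4:**
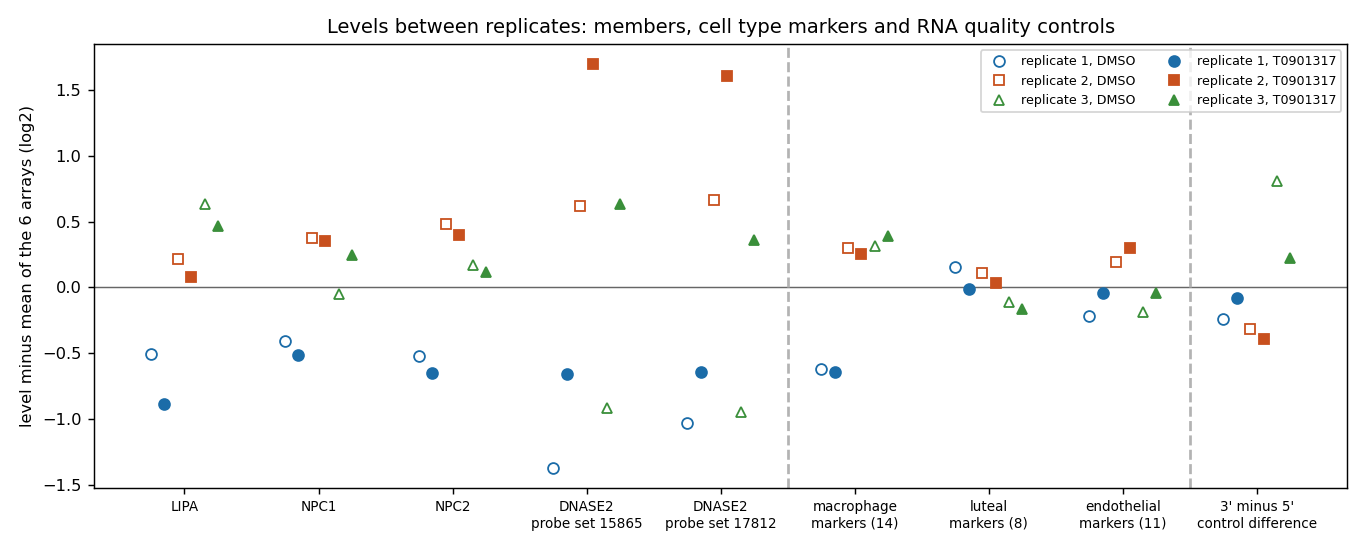
Level minus the mean of the 6 arrays, on a log2 scale (vertical axis), for the 5 probe sets, for the mean of each marker list and for the averaged 3' minus 5' control difference (horizontal axis). Open symbols are DMSO and filled symbols T0901317. Both arrays of replicate 1 lie lowest for LIPA, NPC1, NPC2 and the macrophage markers, and replicate 3 lies highest for the control difference.

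Most macrophage markers were also higher in replicate 2 than in replicate 1. Between replicates 2 and 1, 9 of 14 were higher in replicate 2 and 0 lower past the threshold, with a median of 1.05, and for 11 of 14 both arrays of replicate 1 lay below the other 4. TYROBP was higher by 1.86 ± 0.09 and CD14, a receptor for bacterial lipopolysaccharide, by 1.72 ± 0.10. MRC1, a mannose receptor, had 0.05 ± 0.11 and did not pass. In the other comparisons markers ran both with and against members. Between replicates 3 and 2, DNASE2 and NPC2 were lower in replicate 3 and LIPA higher. There the complement genes C1QA and C1QC were higher, by 0.66 ± 0.14 and 0.54 ± 0.14 (limma adjusted p = 0.0039 and 0.011). MSR1 and MRC1 were lower, at -0.78 ± 0.17 and -0.57 ± 0.11 (adjusted p = 0.0045 and 0.0023), and no other macrophage marker passed. Between replicates 3 and 1, where all 4 genes were higher in replicate 3, the macrophage markers had a median of 1.05. MRC1 was lower there, at -0.52 ± 0.11 (adjusted p = 0.0048). For replicate 2 minus replicate 1, endothelial markers had a median of 0.37, with 4 of 11 higher past the threshold. Luteal markers had a median of 0.10 there, with 2 higher and 2 lower past the threshold. All named genes together had a median of -0.0083 in that comparison, with 1220 of 14132 higher and 1024 lower past the threshold. The part of cell composition in the replicate differences of the 4 genes was not tested.

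Listed genes beyond the 4 also differed between replicates. Of the 102 genes in the lysosomal, DNase and DNA sensing lists the F test called 66, or 64.7%, beside 46.2% of named genes. Between replicates 2 and 1, 37 were higher in replicate 2 and 5 lower past the threshold, and the median difference of all 102 was 0.29. The counts of higher and lower genes in each list below are also past the threshold. Proteases and cystatins had 11 of 15 higher and 0 lower, among them CTSZ (2.46 ± 0.10) and CTSS (1.503 ± 0.134), cysteine proteases. Lipid hydrolases had 7 of 11 higher and 0 lower, among them CTSA (1.20 ± 0.09) and the acid ceramidase ASAH1 (1.04 ± 0.09). Of the lysosomal nucleases and related genes 4 of 7 were higher, with RNASE6 at 2.33 ± 0.15, the phosphatase ACP5 at 1.25 ± 0.13 and the exonuclease PLD3 at 0.90 ± 0.11. Other DNases had 1 of 6 higher, and the sterol exit list 1 higher and 1 lower of 8. The lower one, TMEM97, had -0.74 ± 0.10, opposite in sign to NPC1. CD68 stands both among the lysosomal membrane genes and among the macrophage markers.

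The 4 genes did not share one profile. The root mean square distance between profiles over the 6 arrays, each centred on its own mean, was 0.14 between NPC1 and NPC2, 0.31 between LIPA and NPC2 and 0.35 between LIPA and NPC1. The brighter probe set of DNASE2 lay 0.79 to 1.00 from the other genes and the dimmer one 0.69 to 0.95, and these 2 probe sets lay 0.18 from each other. Among 14131 other named genes, those nearest to LIPA were MPP1 (0.034), a membrane scaffold protein of blood cells, ARHGAP15 (0.077) and CCRL2 (0.080), a chemokine receptor-like protein. Those nearest to NPC1 were TANK (0.035), an adaptor of innate signalling, EMB (0.055) and SLC11A1 (0.062), a metal transporter of phagosomes. TCIRG1 (0.052), a subunit of the proton pump, lay nearest to NPC2, before the provisional gene LOC697790 (0.074) and DOCK11 (0.075). No gene came as near to DNASE2, for which APOC4 (0.33), an apolipoprotein, SLA (0.40), an adaptor protein, and ACSL1 (0.45), an enzyme of fatty acid activation, were nearest. These distances describe 6 arrays that share their replicate differences. They were not scaled, so they grow with the spread of a gene, and DNASE2 had the largest vehicle SD of the 4 genes (1.04 on the brighter probe set). They also include the treatment difference known when the genes were picked. The larger distances of DNASE2 and the names of its neighbours are therefore a description only.

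**Figure D5:**
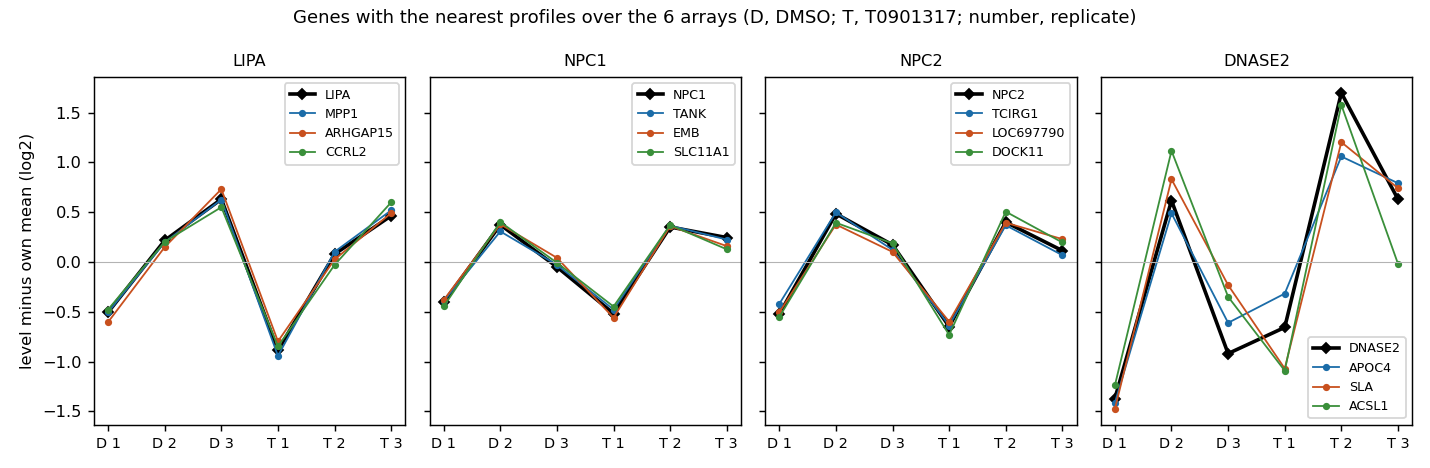
Profiles over the 6 arrays (horizontal axis; D, DMSO; T, T0901317; the number is the replicate) of each member (black) and its 3 nearest named genes, as level minus own mean on a log2 scale (vertical axis). The profiles of LIPA, NPC1 and NPC2 are nearly covered by their neighbours, at distances of 0.034 to 0.080, whereas those of DNASE2 are at 0.33 to 0.45. Distances were not scaled for the spread of a gene.

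Protein-coding genes that lie beside the members on the chromosome did not pass in the treatment contrast. The order was taken from the RefSeq assembly T2T-MMU8v2.0, and only neighbours, not positions, were used. MAST1 and KLF1, on either side of DNASE2, had 0.03 ± 0.13 and -0.07 ± 0.13 at levels near the reference for dim signal. LIPA lies between CH25H, which makes the LXR ligand 25-hydroxycholesterol, and the antiviral gene IFIT2. CH25H had -0.14 ± 0.12 (limma adjusted p = 1.00), with pair values of -0.16, 0.14 and -0.39, and IFIT2 -0.62 ± 0.12 (adjusted p = 0.15). IFIT2 passed without replicate 2 (-0.81; adjusted p = 4.3e-04), without replicate 3 (-0.42; adjusted p = 7.7e-04) and with the RNA quality covariate (-0.50; adjusted p = 0.0091), but had -0.20 as the mean of its probe sets. The neighbours of NPC1, ANKRD29 and RMC1, had -0.02 ± 0.15 and -0.08 ± 0.09, and those of NPC2, SYNDIG1L and ISCA2, 0.07 ± 0.13 and -0.07 ± 0.10.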

How the data were processed

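The deposited values are log2 levels of 52865 probe sets on 6 arrays, made with RMA per the submitters' processing notes; neither its version nor a genome build for the array is given in the sources used here. Per the labels, biotin marked the total RNA. The 99 control probe sets were left out of the tests. Of 52766 probe sets, 24956 had 1 gene symbol in the supplied platform annotation, 361 several and 27449 none. Gene numbers were matched to the supplied RefSeq table (24616 found, 0 symbols changed), which holds all 4 members. Where a gene had several probe sets, the one of highest mean stood for it, except for the members, which are given on each.

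Limma 3.58.1 (R 4.3.3) was fitted to all probe sets with treatment and replicate number, and eBayes with a variance trend. Two-sided p-values were adjusted with the Benjamini-Hochberg method over all probe sets, with a threshold of 0.05. The replicate number pairs the arrays by the design text. Deviations from the group means correlated at 0.658, 0.813 and 0.830 between arrays of 1 number and at most at 0.197 otherwise. At most 0.328% of values were identical between any arrays. With 3 pairs the smallest exact two-sided p by sign flips is 0.25. The fit was tested on simulated data.

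The members and lists were chosen with earlier results of these data known. Besides the members, the text names the 2 genes with the smallest treatment p in each list (none passed) and the 3 nearest profiles of each member. STAR, NAAA, CD14, MRC1, MSR1, C1QA, C1QC, CD68, CTSZ, CTSS, ASAH1, ACP5, PLD3 and the chromosomal neighbours were chosen after values were seen. Alternatives were other normalizations, no block, no variance trend, a dim filter, an RNA quality covariate, probe set means and leaving out each replicate. Sequences of the members were not used here.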

Additional observations from a re-analysis of the deposited data

How the results depend on the processing

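The number of arrays limits all values. Over the main fit and the alternatives, the treatment difference of DNASE2 ran from 0.90 to 1.31 on the brighter probe set. On the dimmer one it ran from 0.67 to 1.12. LIPA ran from -0.27 to -0.15, NPC2 from -0.11 to -0.07 and NPC1 from -0.07 to 0.14. Dropping the block or the variance trend, or filtering dim probe sets, cannot change these differences, only their SE. Over all probe sets, 45 passed in the treatment contrast (32 higher and 13 lower). Without the replicate block that count was 0 in limma, with 143 at an unadjusted p under 0.05, so the calls rest on the pairing. It was 27 with quantile normalization (22 higher, 5 lower) and with cyclic loess (24 higher, 3 lower), 11 without a variance trend and 206 with the RNA quality covariate. Leaving out 1 replicate gave 35 to 328, with 72 without replicate 2 and 328 without replicate 3. The lysosomal, DNase and DNA sensing lists had 0 to 1 calls when 1 replicate was left out, the 1 being IFNB1, a DNA sensing gene. The replicate F test called 21188 probe sets, 10253 with the RNA quality covariate and 9045 to 21815 when 1 replicate was left out, the lowest without replicate 3. For NPC1 its adjusted p ran from 1.6e-19 to 0.071 there. The main fit had 2 residual degrees of freedom, and the fits with the covariate or without a replicate had 1. Calls and p-values of those fits therefore lean more on the variance that limma shares over probe sets, and are not directly comparable with the main fit. With the covariate the difference of NPC1 between replicates 3 and 2 turned from -0.26 to 0.22. The cause of these changes was not tested. The replicate tests need the block, so no value without it exists.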
